A study of Mus musculus with 10 samples.

Results

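Prss50, Entpd3, Rnf138rt1, Gm43861, Rap1b, Tspan7 and Cryba2 form one set because each had been seen at a higher level in Fev+ than in Ngn3+ cells of the embryonic mouse pancreas. They were picked by symbol, as 7 of the 27716 genes listed in every library, and all 7 were among the 7328 genes that passed the low-count filter of the fit. The question was whether they are transient, that is low again in hormone-producing cells, or are kept there. The difference between Fev+ and Ngn3+ cells chose these transcripts, so it is given below as a description and is not tested.

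In the developing pancreas, the transcription factor Ngn3 (gene Neurog3) is switched on for a short time in duct-like epithelial cells that are to become endocrine. These cells then express Fev, an ETS-family transcription factor, and go on to make glucagon (alpha cells), insulin (beta) or somatostatin (delta). Along that route, endocrine cells acquire the machinery for regulated hormone secretion. Ghrelin (epsilon) cells are also endocrine, but the paper's Fev-Cre lineage trace labelled only a part of them in the embryo. Entpd3 is an enzyme on the cell surface that breaks down extracellular nucleotides, and Tspan7 is a tetraspanin, a protein that spans the membrane and organises partners in it. Rap1b is a small GTPase that acts in adhesion and secretion. Prss50 belongs to the trypsin-like serine protease family, and Cryba2 to the beta-crystallins, best known from the eye lens. Rnf138rt1 is named as a retrotransposed copy of the ubiquitin ligase gene Rnf138, and Gm43861 is annotated as a long intergenic non-coding RNA, under the name Gm35409.

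RNA was measured in single cells with the 10x droplet method, as UMIs, which count captured RNA molecules. The version 1 kit was used on whole pancreas of Swiss Webster embryos: 1 library of E12.5, batches 1 and 2 of E14.5, and 1 of E17.5. The version 2 kit was used at the same stages, also on Swiss Webster pancreas, on cells that had been depleted of CD140a+ mesenchyme, with the E17.5 suspension run in 2 wells that were summed here. A further version 2 library came from E14.5 Fev-Cre; ROSA26 mTmG pancreas (lines kept on C57BL/6J), in which Cre made where Fev is expressed turns cells from TdTomato to membrane GFP, and in which sorted GFP+ cells had been mixed with TdTomato+/GFP- cells. No mutant or treated animals were included. Each library was a pool of embryos, so the pool is the sample and individual embryos cannot be told apart.

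The 8 libraries held 2309 to 13182 cells each after filtering, at a median of 2952 to 11256.5 UMIs per cell. Cells were clustered and named from marker genes that did not include the 7 transcripts, which gave 786 Ngn3+-like, 1025 Fev+-like, 1780 alpha-like, 993 beta-like, 284 delta-like and 280 epsilon-like cells. These are rebuilt clusters and may differ from the classes of the study. Fev was at 389 to 1867 CPM (UMIs scaled to the total of the cells of a class) in Fev+-like cells of the 6 libraries with at least 20 of them, and Neurog3 was at 2245 to 7517 CPM in Ngn3+-like cells. Neurog3 was at most 42.1 CPM in alpha-like, beta-like and delta-like cells, but at 243 to 1566 CPM in epsilon-like cells. A cluster with Lhx1, Cacna2d1 and Gspt1 among its leading genes was named Fev+-like at version 2 E14.5 (77 cells) and Ngn3+-like in Fev-Cre (85 cells). In the version 1 libraries such a cluster (95 cells) was left unnamed. The Fev+-like and Ngn3+-like classes thus do not hold the same mix of cells in every library. No E12.5 library had 20 Fev+-like cells. Libraries of 1 kit shared 10 to 182 cell barcodes, at most 1.82% of the smaller library. Mesenchymal cells, which are not endocrine, served as the background level, and there Prss50, Entpd3, Rnf138rt1 and Gm43861 reached at most 3.47 CPM and Cryba2 at most 14.7 CPM, both in the Fev-Cre library. Rap1b and Tspan7 were not low there, at 127 to 328 and 26.2 to 110 CPM.

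The genes lie on 5 chromosomes. On GRCm38 (mm10), with gene models of GENCODE M21, Prss50 is at chr9:110857967-110864629 and Entpd3 at chr9:120539818-120568327, both on the plus strand. Rap1b is at chr10:117813871-117846035 on the minus strand, Gm43861 at chr3:146038445-146039840 on the plus strand, Tspan7 at chrX:10485158-10596605 on the plus strand, and Rnf138rt1 at chrX:163760139-163761329 on the minus strand, as a single exon of 1191 bases. Cryba2, at chr1:74889934-74893143 on the minus strand, is 4514 bases from Fev and 7514 bases from Mir375, the gene of a microRNA of islet cells. Promoters of 6 of the 7 were found in RefSeq on GRCm38.p6 and were searched on both strands over the 250 bases before the gene start. The letters CCGGAA (an ETS core), CAGATG (an E-box) and TAATTA (a homeodomain core) were in 0 of the 6, and in 12%, 14.4% and 4.84% of 32851 promoters. The general E-box CANNTG, which contains CAGATG, was added after those had given no match. It was in 4 of the 6 (Entpd3, Rnf138rt1, Tspan7 and Cryba2) and in 66.2% of all promoters. The sequences below show Prss50, which had 0 or 1 UMI in 5 of 6 Ngn3+-like sums, Rnf138rt1, the one transcript called higher in a hormone class, and Cryba2, the neighbour of Fev, with CANNTG in capitals.
Prss50 (chr9:110857717-110857966, plus strand): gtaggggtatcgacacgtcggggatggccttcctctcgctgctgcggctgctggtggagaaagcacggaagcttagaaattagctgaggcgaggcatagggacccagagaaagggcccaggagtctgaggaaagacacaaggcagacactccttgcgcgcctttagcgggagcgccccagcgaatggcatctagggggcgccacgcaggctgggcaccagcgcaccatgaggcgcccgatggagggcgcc
Rnf138rt1 (chrX:163761333-163761582, minus strand): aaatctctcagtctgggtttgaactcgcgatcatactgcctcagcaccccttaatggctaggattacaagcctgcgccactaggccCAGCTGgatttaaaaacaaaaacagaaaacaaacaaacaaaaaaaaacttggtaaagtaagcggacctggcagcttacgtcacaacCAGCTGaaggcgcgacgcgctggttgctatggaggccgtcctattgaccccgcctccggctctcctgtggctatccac
Cryba2 (chr1:74893144-74893393, minus strand): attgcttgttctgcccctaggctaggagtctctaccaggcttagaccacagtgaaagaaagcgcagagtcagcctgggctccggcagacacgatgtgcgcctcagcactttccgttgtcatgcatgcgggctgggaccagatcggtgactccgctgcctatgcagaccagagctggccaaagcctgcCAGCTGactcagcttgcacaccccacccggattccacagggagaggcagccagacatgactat
The Cryba2 match begins 63 bases before the start, those of Rnf138rt1 164 and 78 bases before it, and the Prss50 window holds none. These matches describe the letters only.

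In Ngn3+-like cells, Prss50 was close to absent: 3 of 6 libraries had 1 UMI, 2 had none, and the Fev-Cre library had 7, for 0 to 4.24 CPM. It stood at 33.4 to 130 CPM in Fev+-like cells, and above the Ngn3+-like level within each of the 5 libraries that had both classes. In version 1 E14.5 batches 1 and 2, where Ngn3+-like cells had 0 UMIs, the limit of 3 UMIs is 15.9 and 16.6 CPM, against 41.3 and 90.2 CPM in Fev+-like cells. Over the fit, the log2 difference was 4.11 for Prss50, 3.30 for Rnf138rt1, 3.27 for Entpd3, 2.45 for Rap1b, 2.39 for Cryba2, 2.05 for Tspan7 and 1.75 for Gm43861. For Prss50 it was 4.74 without the Fev-Cre library. All 7 were higher in 5 of 5 libraries. By the call rule used throughout (adjusted p below 0.05 in edgeR's quasi-likelihood test and at least 2-fold), 13.7% of all genes were called in this contrast, 7.76% higher and 5.91% lower in Fev+-like cells. Since it chose the 7 transcripts, nothing is read from their own calls in it. Gm43861 was the weakest case, with Ngn3+-like cells at 10.6 to 114 CPM and Fev+-like cells at 27.6 to 307 CPM, ranges that overlapped. Its 27.6 CPM, in version 1 E14.5 batch 1, was far below the next lowest Fev+-like value, 135 CPM.

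Within the Fev+-like class, the transcripts were not at 1 level. In the version 2 E14.5 library this class held a cluster led by Runx1t1 (77 cells), with Neurog3 still at 1338 CPM, and a cluster led by Tac1 and Chgb (149 cells), with Neurog3 at 83.4 CPM. All 7 were lower in the first. Rnf138rt1 stood there at 18.8% of its level in the Chgb cluster (95% interval from counting error 4.88 to 52.1%), Prss50 at 29.7% (10.2 to 71.0%), Rap1b at 37.1% (32.4 to 42.4%), Entpd3 at 38.4% (19.4 to 70.6%) and Cryba2 at 38.8% (33.3 to 45.0%). Tspan7 was at 58.0% (48.0 to 69.8%) and Gm43861 at 64.5% (49.5 to 83.5%). The 7 were chosen for lower levels in Ngn3+ than in Fev+ cells. A lower level in the cluster with more Neurog3 was thus largely set by that choice. The clusters were also made from these cells, so these are levels and not a test.

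**Figure D1:**
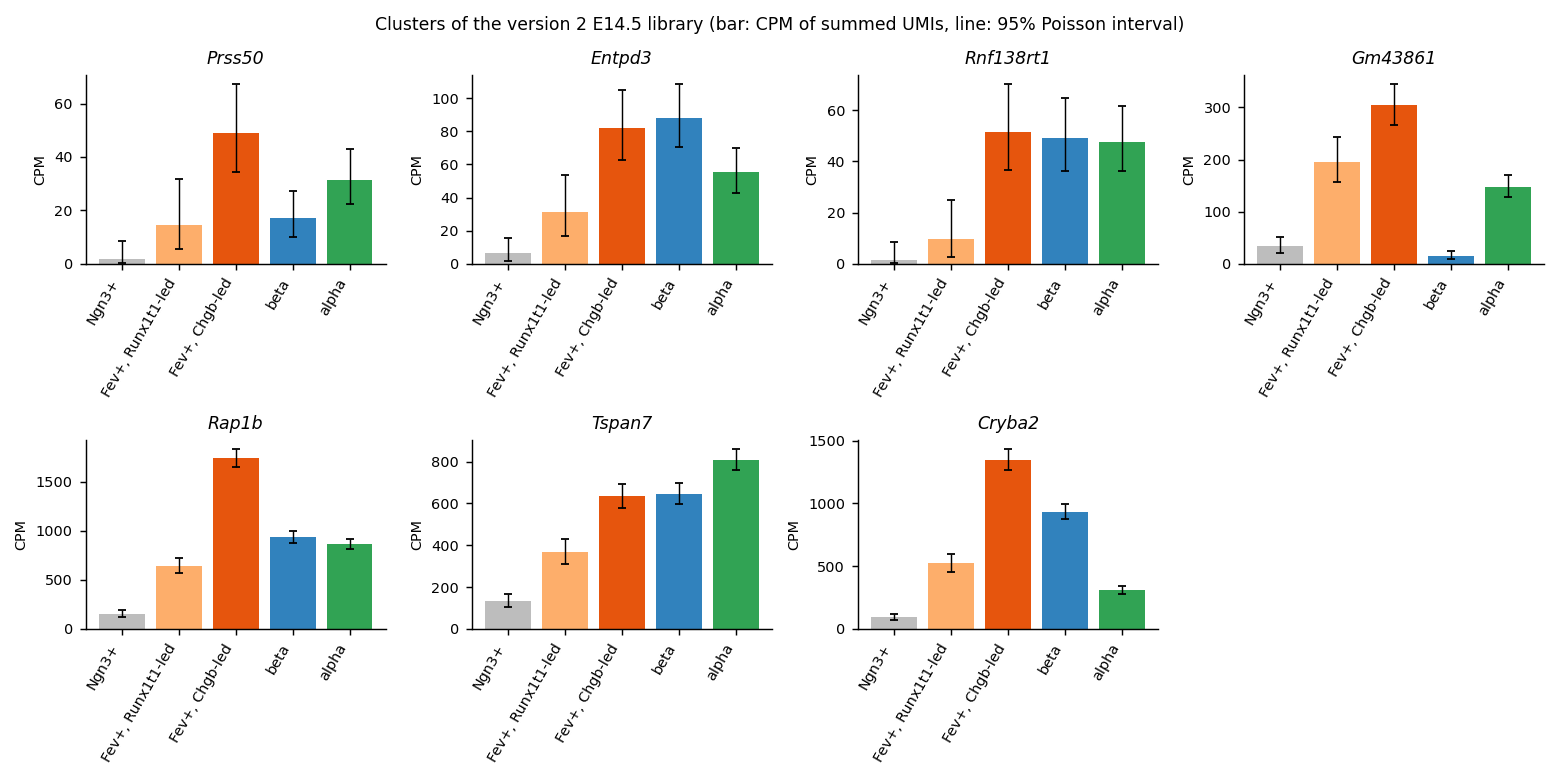
CPM (linear axis) of each transcript in 5 endocrine clusters of the version 2 E14.5 library, as bars with exact 95% Poisson intervals that cover counting error only. Of these clusters, Ngn3+ cells have the lowest value of all but Gm43861, which is lowest in beta cells at 15.0 CPM, and each transcript is higher when going from the Runx1t1-led to the Chgb-led Fev+ cluster.

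In the Fev-Cre library, the Ngn3+-like class held a cluster of 85 cells with both Neurog3 (1838 CPM) and Fev (1102 CPM). In these cells Gm43861 had 84.6% of the level of the Fev+-like class (71.4 to 99.6%) and Cryba2 67.5% (61.3 to 74.3%), while Prss50 had 19.1% (7.58 to 39.9%), Entpd3 19.4% (11.4 to 30.9%) and Rnf138rt1 26.4% (10.4 to 55.6%). Rap1b and Tspan7 lay between, at 55.8% and 49.2%. Among all Ngn3+-like cells of that library, those with an eGFP UMI (72 cells, 32.1%) had Cryba2 at 655 CPM (95% Poisson interval 593 to 723) against 171 (147 to 198) in the 152 cells without. Entpd3 was at 37.5 CPM (23.8 to 56.3) against 2.89 (0.596 to 8.44). Since eGFP follows Fev, higher levels in the cells with eGFP were largely set by the choice of the transcripts. The same holds for the order between the cluster of 85 cells and the Fev+-like class. The intervals cover counting error in 1 library, so these too are levels and not a test. The share of cells with an eGFP UMI was 98.9% in Fev+-like cells and 13.5% in mesenchymal cells, at medians of 6480 and 6046 UMIs per cell. Mesenchymal cells should lack the reporter, so 13.5% was taken as the background share, whose source was not tested, and the sort fixed the mixture of cells. Of this library, the paper reports eGFP reads in every endocrine population other than Ngn3+ cells. The rebuilt Ngn3+-like class includes the 85 cells with Fev and need not match the paper's.

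Alpha-like, beta-like, delta-like and epsilon-like cells were next compared with Fev+-like cells, on 34 sums of UMIs per library and class, with library as a block. These comparisons use the same Fev+-like cells that the choice of the transcripts used and share them with each other, so lower values in hormone cells are not independent of that choice. At version 2 E14.5 the Fev+-like cells include the Runx1t1-led cluster, in which all 7 were lower. The level that hormone cells are set against is thus lower there than in the Chgb-led cluster alone. In alpha-like cells, 2 of the 7 were called, both lower (7.64% of all genes were called, 4.33% higher and 3.32% lower). In beta-like cells, 2 were called, both lower (13.3%, with 7.27% higher and 5.99% lower). In delta-like cells, 2 were called lower and 1 higher (6.65%, with 2.62% lower and 4.03% higher). In epsilon-like cells, 5 were called, all lower (5.06%, with 2.80% higher and 2.27% lower). The median log2 change of all genes was within 0.05 of 0 in each. The paper traced only a part of the epsilon cells to Fev. Whether the epsilon-like calls are losses after a Fev stage was not tested. In the Fev-Cre library, 10.7% of epsilon-like cells had no eGFP UMI, against 0.127% of alpha-like cells, shares that depend on the sort. The 75 epsilon-like cells with an eGFP UMI had Prss50, Entpd3, Gm43861, Rap1b and Cryba2 at 13.3, 35.0, 123, 667 and 595 CPM. Fev+-like cells with an eGFP UMI had these at 58.6, 148, 308, 942 and 1117 CPM. The comparison of beta-like with alpha-like cells is not the one that chose the transcripts, although they were picked with earlier results of these data known. There 4 of the 7 were called, with Entpd3 and Cryba2 higher and Prss50 and Gm43861 lower in beta-like cells (9.92% of all genes, 4.98% higher and 4.94% lower).

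**Figure D2:**
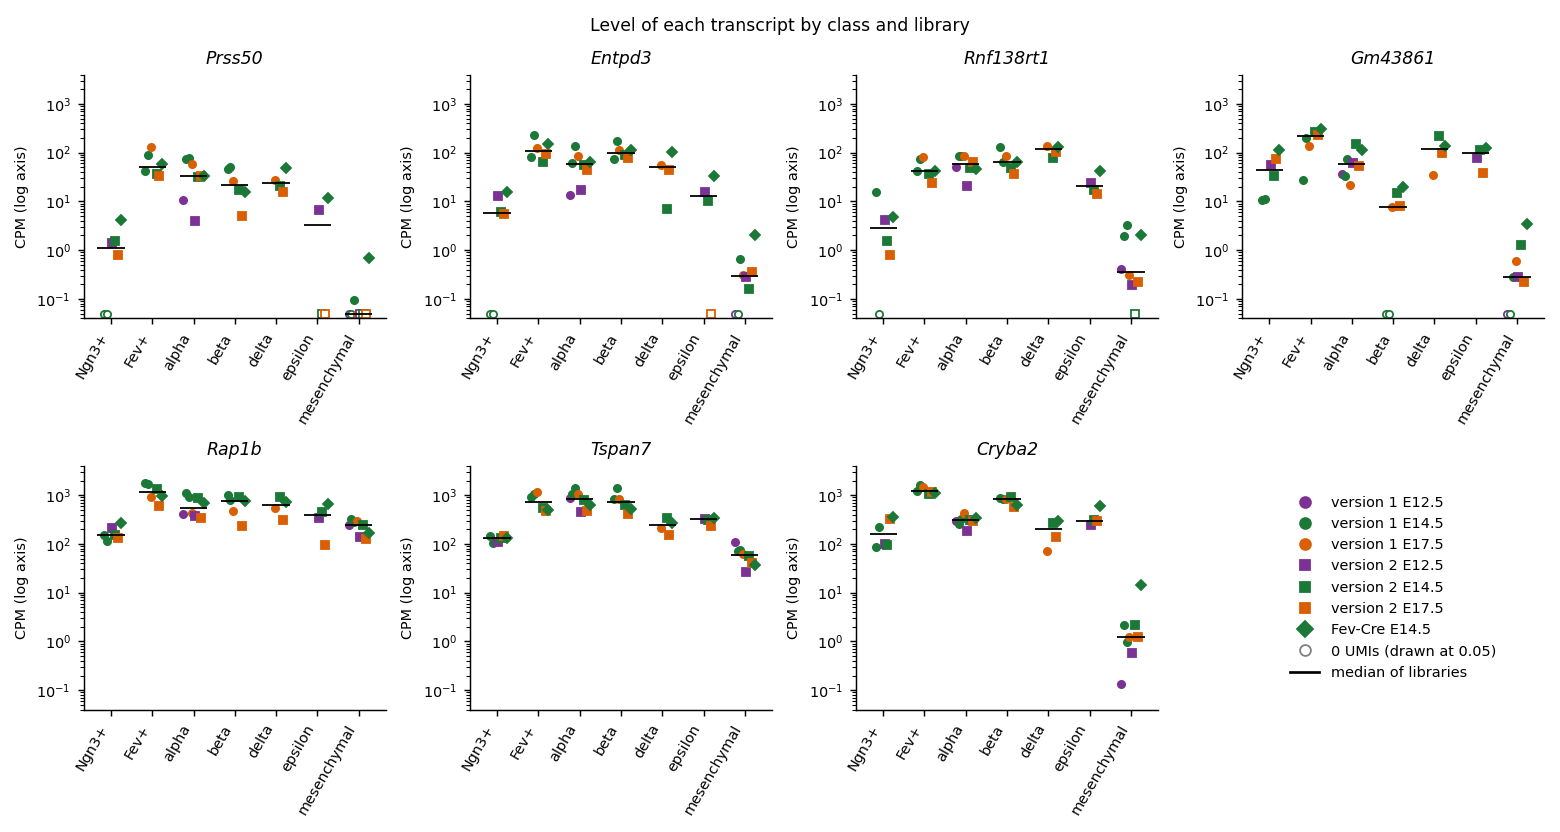
CPM (log axis) of each transcript in each class, with 1 point per library with at least 20 cells of the class and a bar at the median of libraries. Open points at the bottom mark classes with 0 UMIs. Mesenchymal points show the background level for the first 4 transcripts and for Cryba2.

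**Figure D3:**
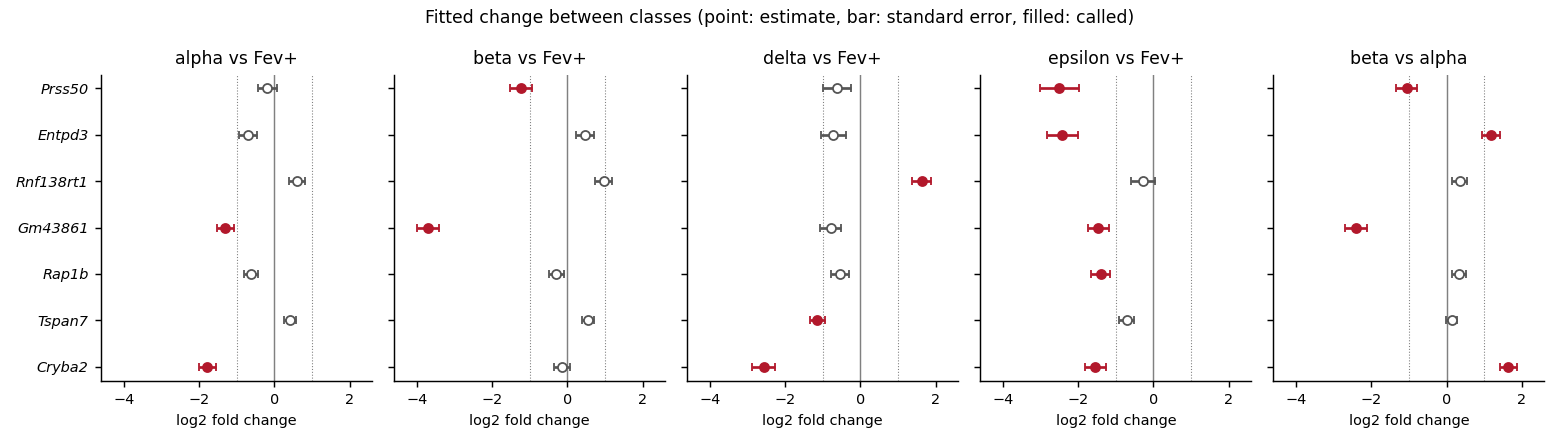
Fitted log2 fold change (point) with its standard error (bar) for the 7 transcripts in 5 comparisons. Filled points passed the call rule and dotted lines mark 2-fold. Against Fev+ cells, Gm43861 and Prss50 are called lower in beta cells, Gm43861 and Cryba2 in alpha cells, Tspan7 and Cryba2 in delta cells, and 5 of the 7 in epsilon cells.

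The surface enzyme Entpd3 was called lower than in Fev+-like cells only in epsilon-like cells, among the 4 hormone classes, although gated classes gave a call in alpha-like cells too (log2 -1.43, adjusted p = 9.87e-05). Its level was 64.2, 109 and 231 CPM (lowest, median and highest of 6 libraries) in Fev+-like cells, 74.7, 99.9 and 174 in beta-like cells and 13.3, 58.1 and 135 in alpha-like cells of 8 libraries. In delta-like cells it was 6.92 CPM at version 2 E14.5, 43.6 at version 2 E17.5, 56.2 at version 1 E17.5 and 104 in Fev-Cre. The beta-like and Fev+-like ranges overlapped almost fully. The fitted log2 difference from Fev+-like cells was 0.47 ± 0.24 (SE, adjusted p = 0.131) in beta-like cells, -0.71 ± 0.25 (adjusted p = 0.0331, under 2-fold) in alpha-like cells and -0.72 ± 0.33 (adjusted p = 0.188) in delta-like cells. In epsilon-like cells Entpd3 was 0, 10.4, 15.4 and 32.6 CPM and 5.34-fold lower than in Fev+-like cells (log2 -2.42 ± 0.42, adjusted p = 0.000129). Beta-like cells had 2.26-fold more than alpha-like cells (log2 1.17 ± 0.24, adjusted p = 0.000313), in 6 of 6 libraries. That difference fell under 2-fold without the version 2 E17.5 library (log2 0.97) and was 0.62 in version 1 libraries alone (adjusted p = 0.166).

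The tetraspanin Tspan7 was called in neither alpha-like nor beta-like cells against Fev+-like cells and was lower in delta-like cells. It ran at 480, 722 and 1149 CPM in Fev+-like cells, 450, 839 and 1402 in alpha-like and 404, 730 and 1410 in beta-like cells. In plain CPM, alpha-like cells were below Fev+-like cells at E17.5 in both kits, and beta-like cells there and in version 1 E14.5 batch 1. On the TMM scale of the fit both were above Fev+-like cells in 6 of 6 libraries, by 1.33-fold (log2 0.41 ± 0.15, adjusted p = 0.0457) and 1.46-fold (log2 0.55 ± 0.16, adjusted p = 0.00579), neither reaching 2-fold. Alpha-like and beta-like cells did not differ beyond the spread (log2 0.14 ± 0.15, adjusted p = 0.532). In delta-like cells it was 151, 211, 274 and 346 CPM, below every Fev+-like library, and 2.22-fold lower (log2 -1.15 ± 0.20, adjusted p = 0.00011). Without the version 1 E17.5 library that difference was -0.97, under 2-fold. Classes taken from a gate on marker UMIs, with no clustering, gave -0.40 (adjusted p = 0.354). In epsilon-like cells Tspan7 was 236 to 336 CPM (log2 -0.71 ± 0.20, adjusted p = 0.0173).

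The small GTPase Rap1b had 592 to 1812 CPM in Fev+-like cells. It had lower medians in alpha-like (345, 557 and 1108 CPM), beta-like (235, 772 and 999 CPM) and delta-like cells (307, 534, 730 and 899 CPM). Within each library every one of these was below the Fev+-like value, yet none was called (log2 -0.62 ± 0.19, -0.29 ± 0.20 and -0.55 ± 0.24, adjusted p = 0.0169, 0.265 and 0.158). Among the 4 hormone classes it was called lower in epsilon-like cells alone, by 2.63-fold (log2 -1.40 ± 0.25, adjusted p = 0.000254), at 93.8, 342, 455 and 674 CPM. With at least 50 cells per sum that call was lost (log2 -1.01, adjusted p = 0.053). Outside the endocrine cells, Rap1b had 277 to 643 CPM in immune cells. Its paralog Rap1a had 221 to 296 CPM in Fev+-like and 95.5 to 226 CPM in Ngn3+-like cells.

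The protease gene Prss50 was lower in beta-like and epsilon-like than in Fev+-like cells, and no difference was called in alpha-like and delta-like cells. The 6 Fev+-like libraries had 33.4, 36.8, 41.3, 58.6, 90.2 and 130 CPM, alpha-like cells 3.99, 32.9 and 76.4, and beta-like cells 5.05, 21.7 and 51.5. The ranges overlapped. Alpha-like cells were above Fev+-like cells in 2 and below in 4 of 6 libraries (log2 -0.18 ± 0.25, adjusted p = 0.659). Beta-like cells were 2.36-fold below Fev+-like cells (log2 -1.24 ± 0.29, adjusted p = 0.000979) and 2.07-fold below alpha-like cells (log2 -1.05 ± 0.28, adjusted p = 0.0043, lower in 6 of 6 libraries). The call against Fev+-like cells held in 16 of 21 alternatives and the call against alpha-like cells in 13 of 21, and version 1 beta-like cells had 5 to 8 UMIs per library. Without the version 2 E17.5 library the log2 difference between beta-like and alpha-like cells was -0.66. In epsilon-like cells Prss50 had 0 UMIs in 2 libraries and 6.61 and 11.9 CPM in the others, a fitted log2 difference of -2.50 ± 0.51 (adjusted p = 0.000952), which was not called when clustering and testing used separate UMIs (log2 -1.44) or at resolution 1 (log2 -0.91). Delta-like cells had 15.7, 20.7, 28.1 and 47.7 CPM (log2 -0.62 ± 0.37, adjusted p = 0.347).

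The crystallin gene Cryba2 was called lower in alpha-like, delta-like and epsilon-like cells but not in beta-like cells. Fev+-like cells had 1058, 1218 and 1624 CPM. Alpha-like cells had 181, 304 and 436 CPM, below every Fev+-like library, for a 3.43-fold lower level (log2 -1.78 ± 0.22, adjusted p = 4.12e-07). Delta-like cells had 70.2, 138, 270 and 289 CPM and were 5.92-fold lower (log2 -2.57 ± 0.30, adjusted p = 1.68e-07). Epsilon-like cells had 242, 294, 309 and 596 CPM and were 2.92-fold lower (log2 -1.54 ± 0.28, adjusted p = 0.00028). These calls held in every alternative tried. Beta-like cells stood at 567, 837 and 934 CPM, with a log2 difference from Fev+-like cells of -0.14 ± 0.22 (adjusted p = 0.663). They were 3.11-fold above alpha-like cells (log2 1.64 ± 0.23, adjusted p = 7.85e-07), in 6 of 6 libraries and with no overlap between the groups.

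The scale matters for Cryba2 in beta-like cells. In plain CPM they were below Fev+-like cells in all 6 libraries, whereas after the TMM scaling of the fit the ratio ran from 0.647 to 1.27 and was above 1 in 2. Hormone transcripts took up 15.3 to 46.5% of all UMIs of beta-like cells, and 0.318 to 1.66% of those of Fev+-like cells. At version 2 E17.5, where they took up 46.5%, Cryba2 was 567 CPM of all UMIs and 1059 CPM once hormone UMIs were left out of the total, against 1189 and 1195 in Fev+-like cells.

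Rnf138rt1 was called lower in none of the 4 hormone classes, and it was higher in delta-like than in Fev+-like cells. With suspected doublets kept, however, it was called lower in epsilon-like cells (log2 -1.67, adjusted p = 0.00297). It had 23.9, 41.8 and 83.2 CPM in Fev+-like cells and 20.9, 57.8 and 85.7 in alpha-like cells. In beta-like cells it had 36.1, 64.2 and 131 CPM, and in delta-like cells 76.1, 102, 131 and 140. The delta-like level was 3.08-fold that of Fev+-like cells (log2 1.62 ± 0.25, adjusted p = 2e-05), with ratios of 2.30 to 5.48 in 4 of 4 libraries, and was not called in version 1 libraries alone. Beta-like cells were 1.95-fold higher (log2 0.96 ± 0.22, adjusted p = 0.000672), which is just under the 2-fold limit and was past it in 7 of 21 alternatives, among them leaving out version 1 E14.5 batch 2 (1.07). Alpha-like cells were higher by 0.61 ± 0.21 (log2, adjusted p = 0.0317) and the difference in epsilon-like cells was within the spread (log2 -0.28 ± 0.32, adjusted p = 0.715), at 14.4, 17.4, 24.2 and 41.5 CPM. Its transcript aligned to Rnf138 over 782 bases at 73.5% identity, and none of its 1102 windows of 90 bases occurred in an Rnf138 transcript. Rnf138 itself had 52.6 to 146 CPM in Fev+-like and 37.9 to 90.9 CPM in Ngn3+-like cells.

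The non-coding Gm43861 was lower in beta-like, alpha-like and epsilon-like than in Fev+-like cells, with 0.770% of thinned beta-like cells holding a UMI (median of libraries). Fev+-like cells had 27.6, 216 and 307 CPM, and beta-like cells 0 UMIs in 2 libraries and 7.52 to 19.5 CPM in the other 4. The fitted level was 13.1-fold lower (log2 -3.71 ± 0.29, adjusted p = 4.55e-12), and 5.28-fold lower than in alpha-like cells (log2 -2.40 ± 0.28, adjusted p = 4.24e-08). In the libraries with 0 UMIs, the upper limit of 3 UMIs corresponds to 19.3 and 28.0 CPM. The second is above the 27.6 CPM of Fev+-like cells in the same library, version 1 E14.5 batch 1, so a lower beta-like level could be read in 5 of 6 libraries against Fev+-like cells. Alpha-like cells were intermediate at 21.4, 57.1 and 147 CPM, lower than Fev+-like cells in 5 and higher in 1 of 6 libraries (log2 -1.31 ± 0.22, adjusted p = 3.94e-05), as were epsilon-like cells at 38.5, 79.3, 115 and 122 CPM (log2 -1.46 ± 0.28, adjusted p = 0.000411, called in 17 of 20 alternatives). Delta-like cells had 35.1, 98.0, 137 and 221 CPM, and their difference missed the threshold (log2 -0.79 ± 0.27, adjusted p = 0.058), passing it without version 2 E14.5 (log2 -1.01).

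Stage was described without a test, since most stages had 1 library per kit. In alpha-like cells, the one hormone class with enough cells at E12.5 in both kits, Prss50 and Entpd3 were low at that stage. With version 1, Prss50 started at 10.6 CPM on E12.5 (95% Poisson interval 2.89 to 27.2), had 75.1 and 76.4 CPM in the E14.5 batches and was 57.1 CPM on E17.5. With version 2 the same stages had 3.99 (1.09 to 10.2), 31.3 and 32.7 CPM. Entpd3 was 13.3 (4.31 to 30.9), 61.0 and 135, and 85.7 CPM with version 1, and 16.9 (9.87 to 27.1), 55.2 and 44.8 CPM with version 2. The E12.5 intervals lay below those of the later stages in both kits for both genes, apart from Prss50 at version 1 E17.5 (24.7 to 113). The mix of alpha-like cells also differed between stages. At clustering resolution 2, a version 1 cluster led by Cartpt, Gcg and Ghrl held 41 alpha-like cells of E12.5. It held 3 and 13 from E14.5 (batch 1, then batch 2) and 19 from E17.5. The other alpha-like cluster held 14, 62, 59 and 25, in that order. At version 2 E12.5, 40 of the 122 alpha-like cells formed a cluster led by Cartpt, Ly6h and Afp. Whether the lower E12.5 levels go with stage or with this mix was not tested. Rap1b was lower at E17.5 than at E14.5 in Fev+-like, alpha-like and beta-like cells with both kits, with 1812 and 1707 against 936 CPM in Fev+-like cells with version 1 and 1351 against 592 with version 2. The Fev-Cre library, left out of these stage values, had 940 CPM of Rap1b in its E14.5 Fev+-like cells. Rap1b was also lower in acinar cells at E17.5, from 164 and 137 to 59.2 CPM and from 141 to 31.1 CPM. These are plain CPM, in which other genes fall when a few transcripts take a larger share. In beta-like cells hormone transcripts took up 19.9 and 15.3% of UMIs at E14.5 and 31.7% at E17.5 with version 1. With version 2 they took up 26.6% and 46.5%. How much of the fall in beta-like and acinar cells is due to scale was not tested. Cryba2 in Fev+-like cells varied little between E14.5 and E17.5, at 1247 and 1624 against 1503 CPM and 1058 against 1189 CPM.

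**Figure D4:**
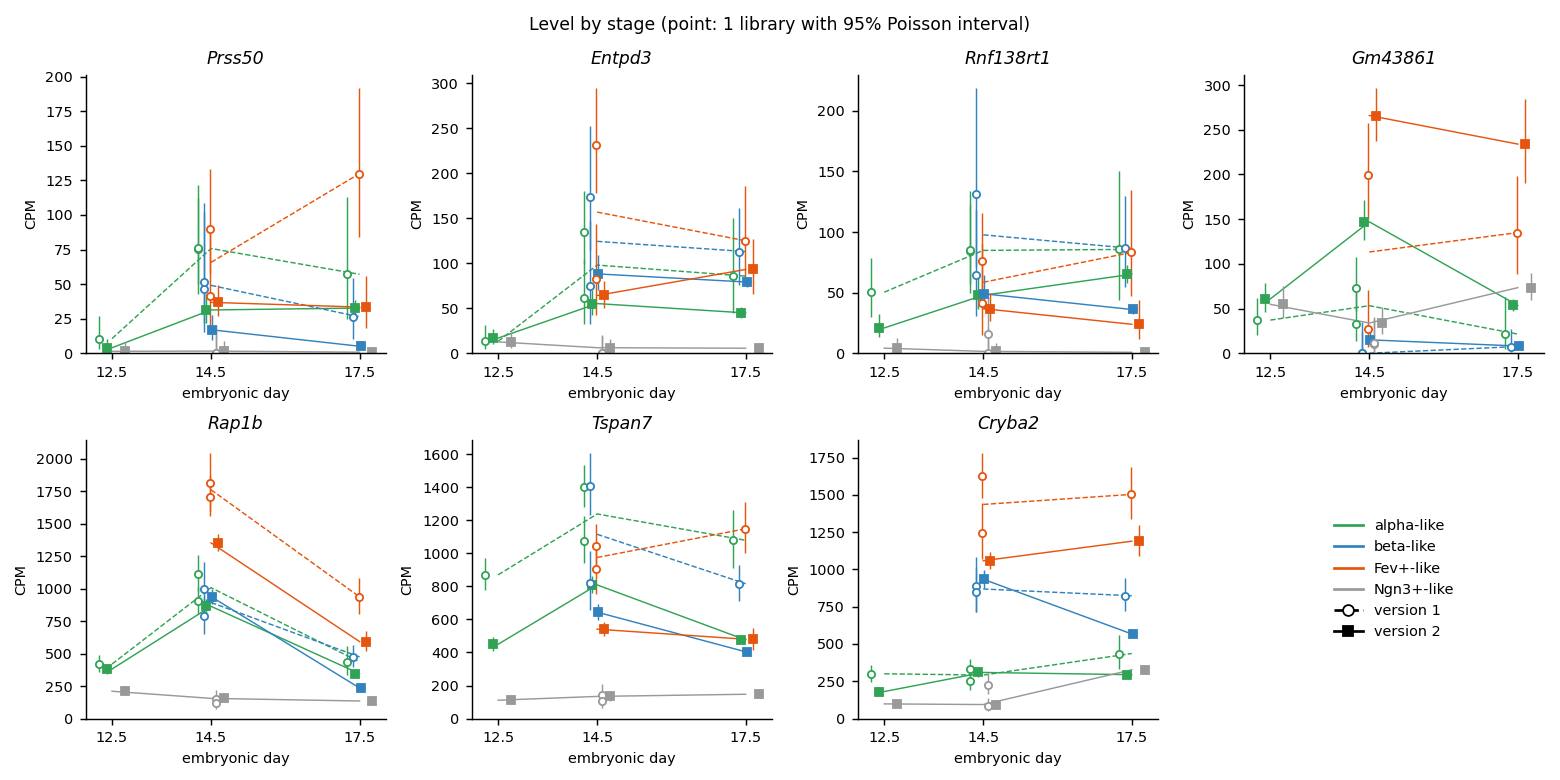
CPM (linear axis) by embryonic day in 4 classes, with 1 point per library, exact 95% Poisson intervals and lines through the mean of each kit. Open circles and dashed lines are version 1, filled squares and full lines version 2, and points are shifted sideways for legibility. The Fev-Cre library is not drawn. In alpha cells, whose mix of cells differed between stages, Prss50 and Entpd3 start low at E12.5. Rap1b is lower at E17.5 than at E14.5 in alpha, beta and Fev+ cells.

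At E12.5, the Fev+-like cells numbered 15, all in version 1, and already had 11 UMIs of Prss50 (193 CPM, 96.5 to 346) and 9 of Entpd3 (158 CPM, 72.3 to 300), with Cryba2 at 808 and Gm43861 at 422 CPM. In version 2 E12.5 an unnamed cluster of 87 cells, led by Gip, Npy and Ins2, had Fev at 456 CPM. It had 41.5 CPM of Prss50, 105 of Entpd3 and 528 of Cryba2.

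The share of cells with a UMI was compared after each cell had been thinned to 2000 UMIs. For Prss50 its median over libraries was 0% in Ngn3+-like cells, 9.94% in Fev+-like, 7.14% in alpha-like, 5.17% in beta-like and 0% in mesenchymal cells (unthinned 0.637%, 18.9%, 15.4%, 11.9% and 0%). For Cryba2 the same shares were 13.3%, 76.2%, 41.6%, 64.0% and 0.283% (unthinned 25.1%, 93.8%, 70.7%, 88.1% and 0.445%). For Gm43861 they were 5.87%, 33.9%, 13.5%, 0.770% and 0.0819%, with beta-like cells nearest to the mesenchymal share (unthinned 16.7%, 59.0%, 34.8%, 7.19% and 0.188%). At this depth a cell of the Fev+-like class had a median of 3 of the 7 transcripts in each of 7 libraries, against 0 or 1 in Ngn3+-like cells and 2 or 3 in alpha-like cells.

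**Figure D5:**
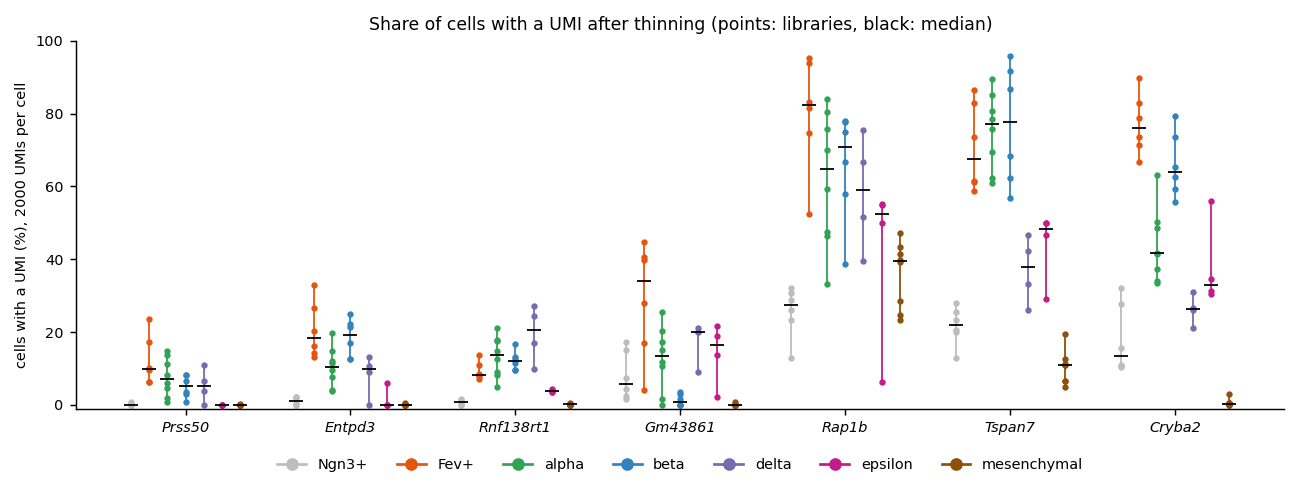
Share of cells with at least 1 UMI (percent) after thinning to 2000 UMIs per cell, with 1 point per library, a line from lowest to highest and a black bar at the median. The median of Fev+ cells is above that of Ngn3+ cells for all 7, with overlapping libraries for Gm43861, and mesenchymal cells are near 0 except for Rap1b and Tspan7.

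Over the 34 sums, with library means removed, the levels of Entpd3 and Rap1b (Pearson r = 0.897) and of Prss50 and Rap1b (0.883) went together most closely, while Gm43861 ran from -0.013 (Tspan7) to 0.365 (Prss50) with the other 6. These sums come from 8 libraries and include the classes that chose the transcripts, so the values are descriptions. The genes most like each transcript were Pax6, Snap25 and Fxyd6 for Rap1b (0.940, 0.924 and 0.922), and they included Cpe and Sphkap for Tspan7 (0.931 and 0.909) and Gnaz and Ing2 for Entpd3 (0.897 and 0.887). Rnf138rt1 was most like Lgals3bp, Abcc8 and Fam92b (0.937, 0.926 and 0.919). Cryba2 was most like Gpd2 (0.930), then Chga and Amigo2 (0.811 and 0.806). Prss50 was most like Dbpht2, 1700101E01Rik and Serpinb1a (0.886, 0.884 and 0.881), and Gm43861 most like Smpdl3a, Foxp1 and Tekt2 (0.885, 0.855 and 0.841). Pax6 is a transcription factor of endocrine cells, Snap25 and Cpe act in exocytosis and hormone processing, Abcc8 is the sulfonylurea receptor of the beta cell potassium channel, and Chga is a protein of secretory granules.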

How the data were processed

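The authors aligned 10x Genomics reads to mm10 with Cell Ranger (1.1 for version 1, 2.1 for version 2 libraries) and deposited raw UMI counts per gene and cell barcode, which were used as deposited. For Fev-Cre, the matrix that includes the reporter genes was used. Cells with at least 200 genes were kept, and cells showing markers of a second cell type (0.585 to 8.34% per library) were left out as doublets. Cells were clustered per kit or library on 2000 variable genes without the 7 transcripts (20 components, 20 neighbours, Leiden 0.10.2, resolution 1, then 1.5 within endocrine cells) and named from marker lists. The resolution and the rules for naming and leaving out clusters were revised after clusters and their leading genes had been seen, and before any fit was run. UMIs were summed per library and class (at least 20 cells) and tested with edgeR 4.0.16 (quasi-likelihood, TMM scaling, Benjamini-Hochberg adjustment over 7328 genes, 34 sums, library as block, 21 residual degrees of freedom, R 4.3.3). Genes were called at a 2-fold or larger change with adjusted p under 0.05. Classes of 1 library deviated together (correlations 0.247 to 0.785 over 66 pairs), which is the pairing the block uses. Libraries are pools, so with the block the p-values measure how class differences vary from pool to pool. They do not measure the spread of levels between pools, or between embryos.

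Total UMIs per library were 15671934 to 196793242. Poisson and exact binomial intervals (95%) and the limit of 3 UMIs cover counting error only. On simulated data for alpha vs Fev, recovery was counted by adjusted p and direction alone, without the 2-fold limit of the call rule. It was 27.5% for 2-fold changes (6529 genes run) and 92.5% for 4-fold changes (6579). Changes near 2-fold can thus be missed, at least as often under the full rule. Members and gene lists were chosen with earlier results of these data known. Genes named are the 7 members, their 3 nearest genes by correlation of log2(CPM + 5) (1 gene and 1 cell class are not reported here), called genes of 7 family lists, and the paralogs Rap1a and Rnf138. Alternatives covered scaling, DESeq2 1.42.0, the low-count filter, the block, each library left out, kits, gated classes, clustering and testing on separate UMIs, doublets, cell minimum and clustering resolution.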

Additional observations from a re-analysis of the deposited data

Results flagged for a closer look

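In 42 groups of 4 to 8 libraries, the highest or lowest level was set against the rest by Dixon's criterion, which chance alone meets in about 1 in 20 groups. It was met by 2. Prss50 in Ngn3+-like cells was 4.24 CPM in the Fev-Cre library (7 UMIs), against 0 to 1.54 CPM in the other 5. Rnf138rt1 in Ngn3+-like cells was 15.9 CPM in version 1 E14.5 batch 1 (3 UMIs), against 0 to 4.84 CPM in the other 5. In the Fev-Cre library, 85 of the 224 Ngn3+-like cells formed the cluster with Fev at 1102 CPM, and all 7 Prss50 UMIs were in that cluster.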

How the results depend on the processing

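Of the fitted changes of the 7 transcripts under alternatives, 800 kept direction and side of the threshold, 25 lost a call, 11 gained one and 4 changed sign without being called. A further 35, all of the untested difference between Fev+-like and Ngn3+-like cells, moved by more than their standard error. The calls of Cryba2 in all 4 comparisons in which it was called, of Gm43861 in alpha-like and beta-like cells and of Entpd3 in epsilon-like cells held in every alternative run. Prss50 in alpha-like against Fev+-like cells moved to 0.001749 without Fev-Cre (leaving out each library gave -0.3827 to 0.001749) and to 0.08768 when clustering and testing used separate UMIs. Cryba2 in beta-like cells was 0.03284 with version 2 alone, and Rnf138rt1 in epsilon-like cells 0.5201 with gated classes (and -1.67, called lower, with doublets kept). By mean log-normalized values (natural log), the beta-like minus Fev+-like difference was 0.0137 for Entpd3 and 0.11 for Tspan7. Both had the sign of the fit, whereas plain CPM averaged over libraries gave the other sign. Counts of genes called, in the order alpha, beta, delta and epsilon against Fev, beta against alpha, and Fev against Ngn3, were 1023, 1785, 776, 569, 1499 and 1753 without a low-count filter. With separate UMIs they were 372 (alpha), 601 (beta), 233 (epsilon) and 473 (beta against alpha), and with at least 50 cells per sum 859, 1469 and 1178 (alpha, beta, beta against alpha). With no replicate block they were 317 (delta) and 247 (epsilon), and the block, which is the pairing by library, changed the other counts by under 1.5 times. It was needed for the calls of Prss50 in beta-like cells, against both Fev+-like and alpha-like cells, and Gm43861 in epsilon-like cells, and without it Tspan7 was called lower in epsilon-like cells. Version 1 alone gave 202 (delta) and 478 (beta against alpha), and could not give epsilon. Leaving out each library gave 468 to 672, 814 to 1183, 287 to 528, 313 to 399, 615 to 876 and 941 to 1241, the 287 without version 2 E17.5. Resolution 1, which was added after seeing the data, and separate UMIs each lost the calls of Prss50 in beta-like and epsilon-like cells and of Gm43861 in epsilon-like cells. Except where an alternative has fewer samples, cells or genes by construction, the cause was not tested. Depth limits Prss50 and Rnf138rt1, which had 0 to 8 UMIs in several sums.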

Other observations

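The relatives of the 7 transcripts, from family lists that include the members themselves, were followed in the same fit, as far as they passed the low-count filter (19 of 29 tetraspanins, 6 of 16 ectonucleotidases, 10 of 27 Rap genes). Among 19 tetraspanins tested, 1 was called higher and 1 lower in alpha-like than in Fev+-like cells (of all genes, 4.33% and 3.32%; median log2 change 0.27, all genes 0.0027). In beta-like cells 0 were higher and 4 lower (of all genes, 7.27% and 5.99%; median 0.34, all genes -0.046), in delta-like cells 3 and 2 (4.03% and 2.62%; median 0.44, all genes -0.03), and in epsilon-like cells 3 and 1 (2.80% and 2.27%; median 0.41, all genes -0.01). Tspan8 was higher in alpha-like cells (log2 2.17, edgeR adjusted p = 0.00223) and lower in beta-like cells (-2.29, adjusted p = 0.031). Tspan1 was lower in both (-2.39 and -3.64, adjusted p = 6.75e-07 and 4.5e-09). Of 6 ectonucleotidase genes tested, Enpp1 was the 1 called in alpha-like cells, higher (1.33, adjusted p = 0.032; of all genes, 4.33% higher), and in beta-like cells, lower (-1.92, adjusted p = 0.029; of all genes, 5.99% lower). In epsilon-like cells Enpp1 (3.96, adjusted p = 1.12e-07) and Enpp5 were called higher, and Enpp2 and Entpd3 lower (of all genes, 2.80% and 2.27%). Of 18 purine receptor genes, 3 passed that filter, which a gene can do through the class in which it is high, so nothing is read from their count. P2ry1 was called higher in beta-like cells (5.55, adjusted p = 3.56e-11) and in delta-like cells (3.12, adjusted p = 0.0012), and Adora2a in delta-like cells (1.46, adjusted p = 0.0151; of all genes, 7.27% higher in beta-like and 4.03% in delta-like cells).

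Of 34 trypsin-like protease genes, 5 passed the low-count filter, and the same limit holds for their count. In beta-like against Fev+-like cells, Prss53 (5.12, adjusted p = 2.72e-14), Prss8 (2.22, adjusted p = 0.0026), Prss36 (1.56, adjusted p = 0.000439) and Prss23 (1.02, adjusted p = 0.0497) were called higher, and Prss50 lower (of all genes, 7.27% and 5.99%). Prss36 was also called higher in alpha-like cells (1.52, edgeR adjusted p = 0.000511, with 4.33% of all genes higher). In epsilon-like cells Prss8 (2.62, edgeR adjusted p = 0.0145) and Prss36 (1.68, edgeR adjusted p = 0.00466) were called higher, and Prss50 lower (of all genes, 2.80% and 2.27%). None was called in delta-like cells. Of 10 Rap GTPases and regulators, 1 was called in alpha-like, beta-like and delta-like cells each, higher (of all genes, 4.33%, 7.27% and 4.03% higher). These were Rap1gap in alpha-like and delta-like cells (1.52 and 1.97, adjusted p = 5.76e-05 and 5.93e-05) and Rapgef4, a cAMP-activated exchange factor for Rap proteins, in beta-like cells (1.09, adjusted p = 0.00108). In epsilon-like cells Rapgef4 was called higher (1.20, adjusted p = 0.00796) and Rap1b lower (of all genes, 2.80% and 2.27%). Of 17 crystallin genes, 2 passed the low-count filter, Cryba2 and Crybb1, and as for the proteases nothing is read from their count. Cryba2 was called lower in alpha-like and delta-like cells (of all genes, 3.32% and 2.62%). In epsilon-like cells Cryba2 was called lower and Crybb1 higher (2.35, edgeR adjusted p = 0.00439, with 2.27% of all genes lower and 2.80% higher). Of 4 ubiquitin ligase genes of the Rnf138 family, 0 were called in alpha-like and in beta-like cells (of all genes, 7.64% and 13.3%), and 1, Rnf138rt1, was higher in delta-like cells (of all genes, 4.03%). Rnf138 had adjusted p = 0.00483 and 0.00357 in alpha-like and beta-like cells, with changes under 2-fold (-0.64 and -0.67).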
